A study of Melospiza melodia with 33 samples.

Results

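Blood transcripts of 8 wild song sparrows (Melospiza melodia) were compared between the first and the second time that each male met a simulated intruder on its territory. The libraries are the 16 of 33 whose labels give both a first and a second trial of the same bird. The birds were free-living adult males of Linesville, Pennsylvania, and whole blood was profiled for each playback of recorded song. Song was foreign (stimuli 1, 4 and 5, recorded at Millbrook, New York) or local (stimuli 2, 3 and 6, recorded at Linesville). Every bird heard one kind of song at its first trial and the other kind at its second. Local song came first in 4 birds (8422, 8426, 8427 and 8430) and foreign song came first in 4 birds (8428, 8429, 8436 and 8439). A further 7 birds have a library of a first trial only, because they were not caught again, and 10 baseline birds had no trial. The sources used here do not give the days between trials or the time from playback to bleeding, and 1 batch label covers all 33 libraries.

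Bird blood differs from mammalian blood in that the red cells and the thrombocytes keep their nuclei, so red cells, which far outnumber the other cells, add much of its mRNA. Interferons are signalling proteins released when sensors such as RIG-I-like helicases meet viral nucleic acid. They act through receptors and Janus kinases on STAT and IRF transcription factors, which switch on antiviral effectors and also feedback inhibitors such as SOCS1 and USP18 that damp the signal.

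No gene passed the test of second against first trial. With the bird as a block and song origin as a term, edgeR's quasi-likelihood test called 0 of 12614 genes (0%) at an adjusted p under 0.05, and the lowest adjusted p was 0.649. An unadjusted p under 0.05 was met by 726 genes (5.76%), of which 479 (3.8%) stood higher and 247 (1.96%) lower at the second trial. DESeq2 on the same design called 1 gene, DUSP15, and limma-voom called 0. The values that follow are therefore descriptions of direction and size, and every gene named had an edgeR adjusted p of 0.649 or above. Log2 fold changes are second minus first, ± a standard error derived from the test. CPM is counts per M of the normalised library size, given as mean ± SD over 8 birds.

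The pair of libraries from bird 8439 stood apart. Expression relative to the group means correlated within the other 7 pairs with r from 0.325 (bird 8428) to 0.623 (bird 8427), across genes. In bird 8439 the own-pair r was -0.04, and its highest r with the second library of another bird was 0.0626. In that bird 54.6% of the tested genes differed by more than 1 on the log2 scale between trials, against 10.2% to 25.9% in the other 7. Without bird 8439 edgeR called 0 of 12683 genes, 547 (4.31%) had an unadjusted p under 0.05, of which 207 (1.63%) stood lower, and the lowest adjusted p was 0.541. Leaving out bird 8428 as well, a choice made after seeing the data, gave 0 of 12933 genes and a lowest adjusted p of 0.0532, for SOCS1 at -1.13 ± 0.167. Birds 8428 and 8439 had the smallest SOCS1 differences (0.09 and -0.12 on the log2 scale), so leaving them out favours that gene.

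Depth was 83.5 ± 9.21 M counts at first trials and 78.6 ± 7.60 M at second trials (SD, n = 8). The number of genes with a count was 13836 ± 720 at first trials and 14612 ± 690.4 at second trials, higher in 6 of 8 birds (exact permutation test over all sign flips, two-sided, p = 0.0469). Without bird 8439 the difference was 509 genes (exact permutation test, p = 0.0938). The 10 most abundant genes took 38.5% ± 3.27 of counts at first trials and 33.4% ± 9.74 at second trials, lower in 6 of 8 birds (exact permutation test, p = 0.211).

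Of 33 gene lists, 2 had a mean log2 CPM that was lower at the second trial in 8 of 8 birds, the feedback inhibitors and the transcription factors of interferon and cytokine signalling. All 9 listed feedback inhibitors were tested. At the second trial 7 of 9 stood lower and 3 of 9 had an unadjusted p under 0.05 (33.3%, against 1.96% of all genes on the lower side). Their median log2 fold change was -0.26, against 0.03 over all tested genes, and it stayed at -0.26 without bird 8439. Their mean log2 CPM was lower by 0.12 in bird 8439 up to 0.57 in bird 8426. Whether fewer cells of a type or less RNA per cell lies behind a lower value cannot be told apart in bulk blood.

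SOCS1, which binds and blocks Janus kinases, had a first-trial level from 7.61 CPM to 18.0 CPM with a median of 10.5 CPM. At the second trial it ran from 3.95 CPM to 12.3 CPM with a median of 5.71 CPM. It was lower in 7 of 8 birds, for example 12.2 CPM against 3.95 CPM in bird 8430 and 18.0 CPM against 6.68 CPM in bird 8427. Bird 8428 was the exception, with 11.6 CPM at the first trial and 12.3 CPM at the second, and bird 8439 had 7.61 CPM and 7.0 CPM. The means were 11.3 ± 3.66 CPM and 6.32 ± 2.68 CPM, and the groups overlapped. This gave a log2 fold change of -0.86 ± 0.186, and -0.94 ± 0.170 without bird 8439.

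CISH, a related inhibitor induced by STAT5, was lower in 8 of 8 birds, though in bird 8436 the values were nearly level at 1009.8 CPM and 1001 CPM. Its first-trial values ran from 416 CPM to 1486 CPM (median 1250.2 CPM) and its second-trial values from 254 CPM to 1349 CPM (median 888 CPM). Bird 8439 gave the lowest value of both groups, and the groups overlapped. The log2 fold change of CISH was -0.47 ± 0.161, and -0.44 ± 0.136 without bird 8439.

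USP18, which removes the ubiquitin-like ISG15 and shuts down the type I receptor, ran from 0.569 CPM to 43.3 CPM at first trials (median 5.00 CPM) and from 0.619 CPM to 8.33 CPM at second trials (median 2.16 CPM). It was lower in 7 of 8 birds. Birds 8427 (12.9 CPM against 1.11 CPM) and 8439 (43.3 CPM against 8.33 CPM) had the widest differences, and bird 8436 was slightly higher. USP18 had a log2 fold change of -1.29 ± 0.358, and -1.07 ± 0.352 without bird 8439.

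**Figure D1:**
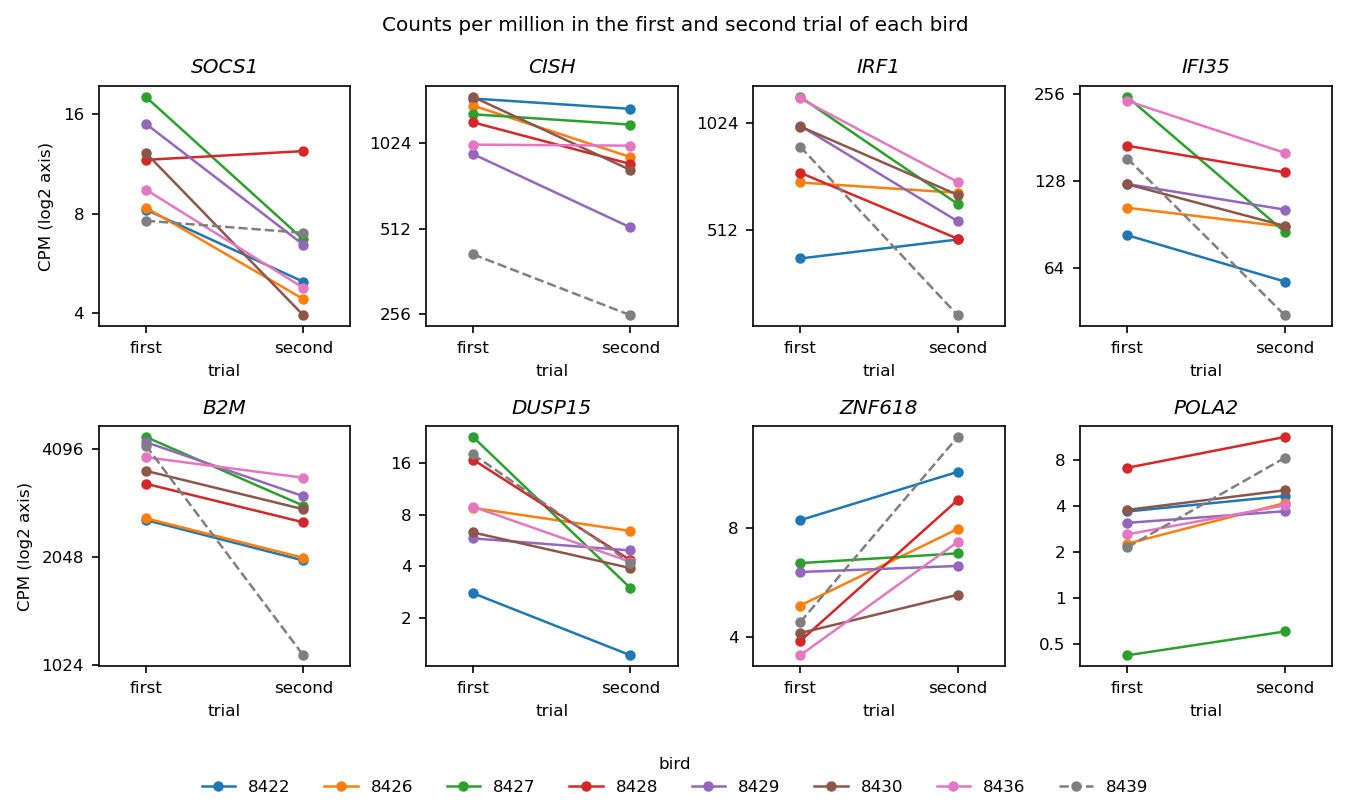
Counts per M (log2 axis) of 8 genes at the first and the second trial, with 1 line per bird and a dashed grey line for bird 8439. SOCS1 is lower at the second trial in 7 of 8 birds, CISH, IFI35, B2M and DUSP15 in 8 of 8, and ZNF618 and POLA2 are higher in 8 of 8.

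Transcription factors and their partners stood lower to a similar degree. Of 11 tested members of 13 listed, 9 stood lower (46.3% of all genes) and 4 of them had an unadjusted p under 0.05 (1.96% of all genes on the lower side). The median log2 fold change was -0.27 with and without bird 8439, and -0.14 without bird 8430 or without bird 8436, and the list's mean log2 CPM was lower in 8 of 8 birds, by 0.05 in bird 8422 up to 0.68 in bird 8427.

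IRF1, a transcription factor that answers interferon-gamma, ran from 427 CPM to 1209 CPM at first trials (median 938 CPM) and from 296 CPM to 699 CPM at second trials (median 575 CPM). It was lower in 7 of 8 birds, and bird 8422, with the lowest first-trial value, was the one that was higher (427 CPM against 482 CPM). The means were 894 ± 266 CPM and 551 ± 129.7 CPM, with overlapping groups. Its log2 fold change was -0.67 ± 0.176, and -0.57 ± 0.136 without bird 8439. The annotated span of IRF1 overlaps LOC134424686, and since no source used here gives the strand setting of the counting, reads of the pair cannot be told apart.

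IFI35, an interferon-induced protein that partners NMI, was lower in 8 of 8 birds. Its first-trial values ran from 82.9 CPM to 250.0 CPM (median 139 CPM) and its second-trial values from 43.8 CPM to 160.0 CPM (median 89.1 CPM), so the groups overlapped. Single-bird log2 differences ran from -1.80 in bird 8439 to -0.22 in bird 8426. The fitted log2 fold change was -0.72 ± 0.200, and -0.54 ± 0.137 without bird 8439. Its neighbour in the annotation, LOC134430799, a protein-coding gene without a symbol, was also lower in 8 of 8 birds, at 53.7 ± 16.9 CPM and 28.3 ± 9.96 CPM and a log2 fold change of -0.93 ± 0.223. With 1 bird left out at a time that fold change ran from -1.06 to -0.71.

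IRF7, which drives type I interferon genes in mammals, was at 567 ± 118 CPM and 428 ± 121 CPM and lower in 7 of 8 birds. Its log2 fold change was -0.44 ± 0.155, and its annotated span overlaps LOC134419479.

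The induced effectors had the lowest list median, but the birds did not go together. Of 31 listed genes 15 were tested, 11 stood lower and 8 of those had an unadjusted p under 0.05, against 1.96% of all genes on that side. The median log2 fold change was -0.50, and -0.39 without bird 8439, where 5 had an unadjusted p under 0.05 on the lower side (1.63% of all genes). Without bird 8427 it was -0.32. The list's mean log2 CPM was lower in 5 of 8 birds, by 1.2 in bird 8427, 0.68 in bird 8439 and 0.63 in bird 8428, and higher by 0.05 to 0.23 in birds 8422, 8426 and 8429.

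RSAD2, the antiviral enzyme viperin, shows this spread. Its values were 1219.8 CPM at the first trial and 112 CPM at the second in bird 8439, and 561 CPM and 98.4 CPM in bird 8427. In bird 8429 they were 289.9 CPM and 281 CPM, and in bird 8430 the second-trial value was the higher one (201 CPM and 218 CPM). First-trial values ran from 158 CPM to 1219.8 CPM (median 279 CPM) and second-trial values from 98.4 CPM to 281 CPM (median 155 CPM). The log2 fold change of RSAD2 was -1.10 ± 0.381, and -0.77 ± 0.360 without bird 8439.

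ADAR, which edits adenosine to inosine in double-stranded RNA, was the effector that was lower in 8 of 8 birds. Its first-trial values ran from 152 CPM to 247 CPM (median 215 CPM) and its second-trial values from 96.3 CPM to 186 CPM (median 152 CPM), with overlap. ADAR had a log2 fold change of -0.50 ± 0.156, and -0.39 ± 0.114 without bird 8439. PARP9, an ADP-ribosyltransferase partner of DTX3L, was at 242 ± 108 CPM and 142 ± 67.2 CPM and lower in 6 of 8 birds. With 1 bird left out at a time the PARP9 log2 fold change ran from -0.84 to -0.55.

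Sensors and adaptors were mixed. Of 13 tested members, 8 stood lower and 5 higher. Of those with an unadjusted p under 0.05, 2 stood lower and 3 higher (1.96% and 3.8% of all genes), and the list's mean log2 CPM was higher at the second trial in 5 of 8 birds. TRIM25, the ubiquitin ligase of the RIG-I pathway in mammals, was lower in 8 of 8 birds, at 168 ± 75.3 CPM and 105 ± 32.2 CPM (log2 fold change -0.61 ± 0.241, and -0.32 without bird 8427). ZNFX1, a helicase-like sensor of viral RNA in mammals, was at 505 ± 105 CPM and 351 ± 76.0 CPM and lower in 7 of 8. DHX58, a RIG-I-like receptor, was lower in 6 of 8 (log2 fold change -0.53 ± 0.249, and -0.31 without bird 8427). IKBKE, a kinase that activates IRF factors, was higher in 7 of 8 birds at a low level of 1.63 ± 0.651 CPM and 2.61 ± 0.838 CPM. The IKBKE log2 fold change was 0.71 ± 0.245, and 0.50 ± 0.186 without bird 8439.

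Receptors and Janus kinases lay close to 0. All 8 listed genes were tested, with 6 lower and 2 higher and 0 at an unadjusted p under 0.05. The median log2 fold change was -0.07, and 0.02 without bird 8439. The receptor chains IFNGR2 (-0.21 ± 0.157), IFNAR2 (-0.15 ± 0.153) and IFNGR1 (-0.10 ± 0.166) all had log2 fold changes within 1.5 standard errors of 0. Without bird 8439 they were -0.08 ± 0.102, -0.01 ± 0.0998 and 0.02 ± 0.124.

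Antigen presentation, in part induced by interferon, stood lower in 7 of 10 tested genes of 17 listed (46.3% of all genes), and 1 had an unadjusted p under 0.05 (1.96% of all genes on the lower side). The list's mean log2 CPM was lower in 7 of 8 birds, with bird 8439 higher by 0.12. B2M, the invariant light chain of class I molecules, was lower in 8 of 8 birds. Its first-trial values ran from 2599 CPM to 4430.3 CPM (median 3727 CPM) and its second-trial values from 1092 CPM in bird 8439 to 3411 CPM (median 2675 CPM), and the groups overlapped. For B2M the log2 fold change was -0.58 ± 0.202, and -0.39 ± 0.117 without bird 8439. TAPBPL, a peptide editor of class I, was at -0.33 ± 0.170 (-0.44 ± 0.144 without bird 8439, -0.22 without bird 8427 and -0.19 without bird 8436). PDIA3, a chaperone of the loading complex, was at -0.29 ± 0.151, and -0.16 ± 0.103 without bird 8439.

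**Figure D2:**
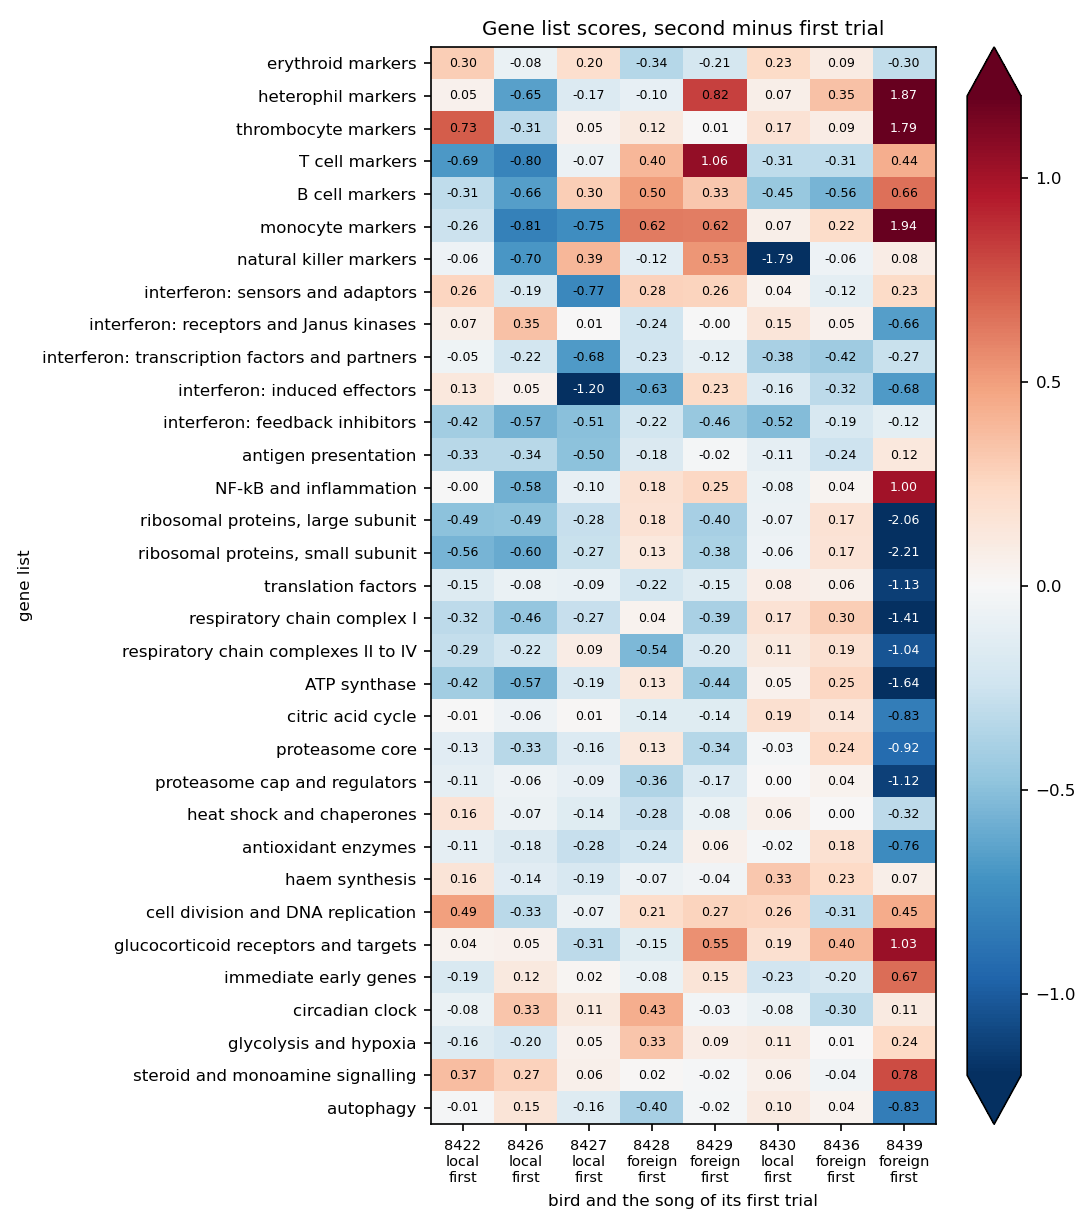
Mean log2 CPM of the tested members of 33 gene lists, second minus first trial, with 1 column per bird labelled with the song of its first trial. Blue is lower and red is higher at the second trial, and the colour scale ends at the values marked on its bar. The rows of transcription factors and of feedback inhibitors of interferon and cytokine signalling are negative in 8 of 8 birds. The column of bird 8439 holds the darkest cells of the ribosomal protein rows, at -2.06 and -2.21.

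Song order was set beside these values, since in each order alone trial and song cannot be told apart. The recordings went with the order and cannot be told apart from it. Birds 8422, 8427 and 8430 heard stimulus 3 and then 4, and bird 8426 heard 2 and then 1. Birds 8429 and 8436 heard 1 and then 2. Birds 8428 and 8439, with the lowest own-pair r, heard 5 and then 6. The mean difference of the feedback inhibitors was -0.50 in the 4 birds with local song first and -0.25 in the 4 with foreign song first. For the transcription factors it was -0.33 and -0.26, and for the effectors -0.29 and -0.35. SOCS1 gave -1.17 and -0.56, IRF1 -0.39 and -0.96, and ADAR -0.36 and -0.64. The sign was the same in both orders for these lists and genes. For those lower in all or nearly all birds this was largely fixed in advance, so it is no check on song. The sign differed for sensors and adaptors (-0.16 and 0.16) and for receptors and Janus kinases (0.14 and -0.21). All foreign-first means include bird 8439. For receptors and Janus kinases that bird was at -0.66, and the other foreign-first birds ran from -0.24 to 0.05. The difference between orders was not tested.

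Birds that entered the comparison only once were used to place the levels. The second trials of the 8 birds were compared with the first trials of the 7 other birds, and the first trials of the 8 with those same 7. The 3 comparisons share libraries and are not independent. edgeR called 0 of 13238 genes (0%) in the former, with 500 (3.78%) at an unadjusted p under 0.05, and 0 of 12952 (0%) in the latter, with 527 (4.07%). DESeq2 called 0 and 3 genes.

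The lists differed in where the second-trial values fell. For the effectors the median log2 fold change was 0.15 against the first trials of other birds, with 3 of 15 members lower. The same list stood 0.56 higher at the first trial in the 8 recaptured birds than in the 7 others, with 2 of 15 lower. For the transcription factors these medians were -0.04 and 0.43. RSAD2 was 0.44 ± 0.528 against other birds' first trials, while at the first trial the recaptured birds were 1.77 ± 0.617 above the others. USP18 gave 0.06 ± 0.812 and 1.82 ± 0.942 in the same order. These values include bird 8439, which had the highest first-trial RSAD2 (1219.8 CPM) and USP18 (43.3 CPM). The other recaptured birds reached 561 CPM and 12.9 CPM at first trials. For RSAD2 and the effector list, baseline birds lay nearer the recaptured birds' first trials. Their RSAD2 median was 239.6 CPM, against 279 CPM at first trials, 155 CPM at second trials and 78.4 CPM in the 7 others. The mean log2 CPM of the effectors was 4.67 ± 0.377 at first trials, 4.36 ± 0.364 at second trials, 4.01 ± 0.932 in the 7 others and 4.56 ± 0.451 in baseline birds, so the 7 others had the lowest mean and the widest spread, and baseline birds were not tested against the other groups.

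For SOCS1 and CISH the order differed. SOCS1 at the second trial was -0.96 ± 0.442 against other birds' first trials, and at the first trial the recaptured birds stood at -0.07 ± 0.417 against them. CISH gave -0.52 ± 0.288 and -0.14 ± 0.205. Over all 9 feedback inhibitors the median was -0.03 and -0.04. On a scale set over all 33 libraries, SOCS1 ranged from 4.20 CPM to 36.1 CPM (median 8.65 CPM) in the 7 birds with a first trial only and from 7.32 CPM to 24.4 CPM (median 12 CPM) in the 10 baseline birds. The second-trial median of 5.71 CPM was below both medians, and all 3 groups overlapped. For CISH the median was 1162 CPM in the 7 birds with a first trial only and 950 CPM in baseline birds. The baseline median of CISH lay nearer the second-trial median (888 CPM) than the first-trial median (1250.2 CPM). IRF1 in baseline birds spanned 237 CPM to 2067 CPM (median 879 CPM), a range that holds every value of the 8 birds with both trials. In the 7 birds with a first trial only the range reached lower, from 95.7 CPM to 1537 CPM.

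**Figure D3:**
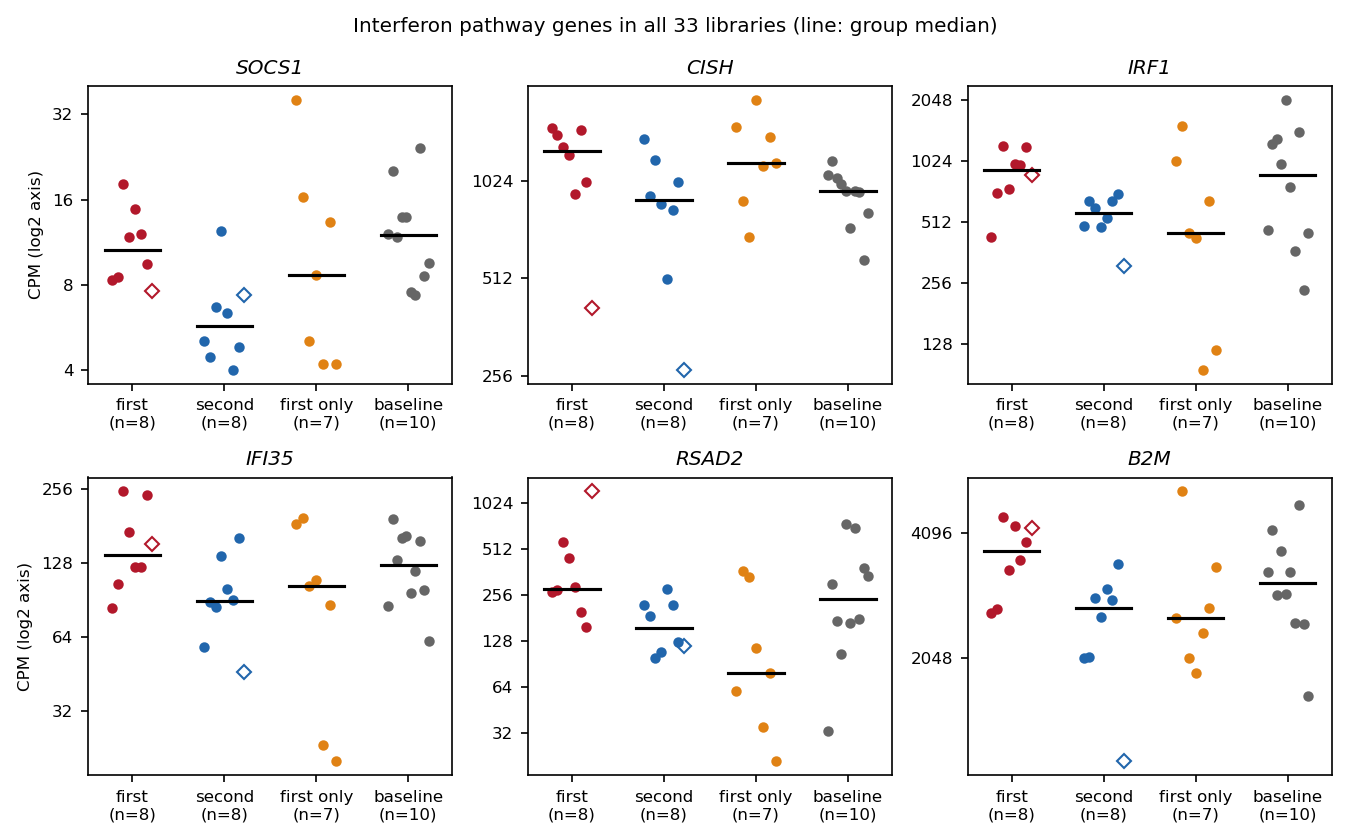
Counts per M (log2 axis, scaled over all 33 libraries) of SOCS1, CISH, IRF1, IFI35, RSAD2 and B2M in the first and second trials of 8 birds, the first trials of 7 other birds and 10 baseline birds, with a line at each median and open diamonds for bird 8439. In 7 of 8 birds the second-trial SOCS1 value lies below the median of every other group, while for RSAD2 the lowest median is that of the 7 birds with a first trial only.

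Outside the interferon lists, genes with 1 sign in every bird were few. Of all tested genes 121 (0.959%) were higher and 92 (0.729%) were lower in 8 of 8 birds. DUSP15 encodes a dual-specificity phosphatase and stood lower at the second trial in all 8 birds. Its first-trial values ran from 2.79 CPM to 22.8 CPM (median 8.85 CPM) and its second-trial values from 1.21 CPM to 6.44 CPM (median 4.22 CPM). Bird 8427 had 22.8 CPM and 2.98 CPM, while bird 8429 had 5.83 CPM and 4.95 CPM, and the groups overlapped. Its log2 fold change was -1.32 ± 0.288 (-1.19 ± 0.291 without bird 8439) and the DESeq2 adjusted p was 0.0224, the single call of that tool. Against the first trials of the birds not caught again, DUSP15 was at -0.50 ± 0.775 at second trials. At the first trial the recaptured birds stood at 1.04 ± 0.790 against those birds.

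PEX26, which anchors import factors to the peroxisome membrane, was lower in 8 of 8 birds at 19.5 ± 17.9 CPM and 8.87 ± 7.12 CPM (log2 fold change -0.96 ± 0.268). With 1 bird left out at a time that fold change ran from -1.05 to -0.70. PEX26 differed widely between birds, from 3.78 CPM in bird 8422 to 57.1 CPM in bird 8439 at first trials. FBXO2, an F-box protein that binds glycoproteins, was at -0.69 ± 0.183 and lower in 8 of 8. IL1RL1, the receptor of interleukin-33, was at -1.09 ± 0.352 with 8 of 8 lower, and at -0.73 ± 0.186 without bird 8439, where the second-trial value was 0.0723 CPM. The 7 first-trial-only birds had a lower IL1RL1 level (1.92 ± 0.900 CPM) than the recaptured birds at either trial (4.27 ± 2.56 CPM and 2.75 ± 2.29 CPM), with overlapping ranges (the scaling of the 7 differs slightly).

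MYC, a growth-promoting transcription factor of the immediate early list, was also lower in 8 of 8 birds, at 1.27 ± 0.288 CPM and 0.808 ± 0.362 CPM. MOV10, an RNA helicase, was at -0.50 ± 0.148 and MYOZ1, known from the sarcomere of muscle, at -0.87 ± 0.256, each lower in 7 of 8. LOC134416526, a protein-coding gene without a symbol, was lower in 8 of 8 at -1.08 ± 0.254. C2H11orf87 had a small p but no stable direction, since it was listed at 0 in several libraries and its log2 fold change was -2.48, -1.95 without bird 8439 (8.48 CPM at the first trial, 0.145 CPM at the second) and 0.31 without birds 8428 and 8439.

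Among genes higher at the second trial, POLA2, the accessory subunit of DNA polymerase alpha, was higher in 8 of 8 birds. Its values ran from 0.419 CPM to 7.07 CPM at first trials (median 2.84 CPM) and from 0.599 CPM to 11.2 CPM at second trials (median 4.39 CPM). Bird 8427 was the lowest at both trials, bird 8428 the highest at both, and the groups overlapped. POLA2 had a log2 fold change of 0.70 ± 0.203, and 0.53 ± 0.158 without bird 8439. ZNF618, a zinc finger protein whose span overlaps LOC134428372, was at 5.22 ± 1.63 CPM and 8.59 ± 2.98 CPM, higher in 8 of 8 birds (0.71 ± 0.187).

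HTR2C, a serotonin receptor, was at 2.37 ± 0.667 CPM and 4.25 ± 2.18 CPM and higher in 8 of 8 birds, with log2 differences of 0.08 in bird 8429 up to 1.97 in bird 8439. Its log2 fold change was 0.74 ± 0.218, and 0.57 ± 0.178 without bird 8439. MYO1D, an unconventional myosin (0.69 ± 0.207), RYBP, a Polycomb protein (0.58 ± 0.173), and TUB, the tubby protein (0.59 ± 0.188), were each higher in 8 of 8 birds. So were TNS1, a tensin of cell adhesions (0.68 ± 0.240, and 0.43 ± 0.136 without bird 8439), and PHLPP1, a phosphatase of AKT (0.37 ± 0.142). MCOLN1, a lysosomal channel, was also higher in 8 of 8 (0.57 ± 0.208, and 0.39 to 0.68 with 1 bird left out at a time). LOC134432984, without a symbol, was higher in 8 of 8 at 0.61 ± 0.154, and LOC134424120 in 5 of 8 at 0.84 ± 0.225, with -0.35 in birds with local song first and 1.97 in birds with foreign song first. Both overlap other annotated genes.

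Further genes of small p had an exception among the birds. FRMD4A, a FERM-domain scaffold, had a log2 fold change of 1.37 ± 0.331, at 0.757 ± 0.521 CPM and 1.88 ± 1.04 CPM, and was higher in 7 of 8. ZFHX3, a homeobox transcription factor (1.12 ± 0.281), EXD3, an exonuclease-domain gene (0.53 ± 0.158), and CNNM2, a magnesium transport protein (0.61 ± 0.187), were each higher in 7 of 8. PPP1R3E, a glycogen-targeting phosphatase subunit, was higher in 6 of 8, at 0.04 in birds with local song first and 1.72 in birds with foreign song first. For ZFHX3 the first trials of the recaptured birds were the lower set, at -1.0 ± 0.409 against the 7 other birds, and the second trials differed from those birds by 0.14 ± 0.389.

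Ribosomal protein genes stood lower throughout, with bird 8439 setting the size. All 40 tested large-subunit genes of 47 listed, and all 29 tested small-subunit genes of 35, had negative log2 fold changes, where 46.3% of all genes were negative. An unadjusted p under 0.05 was met by 1 of 40 and 2 of 29, against 1.96% of all genes on the lower side, so the large-subunit share is near that of all genes. The medians were -0.45 and -0.44, and -0.18 and -0.18 without bird 8439, where 39 of 40 and 29 of 29 were negative. The large-subunit mean was lower in 6 of 8 birds, by 2.06 in bird 8439 and by 0.07 to 0.49 in the other 5, and higher by 0.18 in bird 8428 and 0.17 in bird 8436. RPL8 ran from 539 CPM to 814 CPM at first trials (median 741 CPM) and from 113 CPM to 771 CPM at second trials (median 549.8 CPM), and was lower in 8 of 8 birds, in 4 of them by under 0.3 on the log2 scale.

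RPL8 had a log2 fold change of -0.58 ± 0.268, and -0.28 ± 0.112 without bird 8439. RPL19 was at -0.51 ± 0.241, and -0.25 ± 0.118 without that bird, and RPS26 at -0.32 ± 0.150. The mitochondrial lists moved alongside. All 16 tested ATP synthase genes and 33 of 36 genes of respiratory chain complex I were negative, with medians of -0.36 and -0.32, and -0.15 and -0.14 without bird 8439. ATP5F1B, the catalytic beta subunit of ATP synthase, was at 201 ± 61.5 CPM and 144 ± 64.7 CPM, a log2 fold change of -0.59 ± 0.225, or -0.35 ± 0.119 without bird 8439, and its span overlaps LOC134431399 and LOC134431400.

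The share of counts in the 10 most abundant genes and the length of genes were set beside these values. In bird 8439 that share was 40.6% at the first trial and 20.7% at the second. The share was higher at the second trial in birds 8430 (by 5.86 percentage points) and 8436 (by 11.7), where the large-subunit score differed by -0.07 and 0.17. Bird 8428 went the other way, with a share lower by 4.39 points and a large-subunit score higher by 0.18. In 5 groups of equal size ordered by annotated gene span, from a median of 3.17 kb to 81.9 kb, the median log2 fold change went from -0.11 through -0.05, -0.01 and 0.06 to 0.23. Without bird 8439 the groups of shortest and longest genes were at -0.08 and 0.13. Ribosomal large-subunit genes have a median span of 3.51 kb, the effectors 9.52 kb, the transcription factors 10.5 kb and the feedback inhibitors 13.8 kb. The middle group has a median of 14.9 kb. Of the higher genes named, FRMD4A, EXD3, HTR2C, MYO1D, ZNF618, PHLPP1, TUB, ZFHX3, CNNM2, TNS1 and F13A1 lie in the longest group (from 45.5 kb). POLA2, RYBP and MCOLN1, among others, are shorter, and CDC20 and C1QB lie in the shortest group (to 5.21 kb). Of the lower genes named, B2M, IFI35, MYC, PEX26, DHX58, AURKA and CD79A lie in that shortest group. So do ATP5F1B, RPL8, RPL19 and RPS26. SOCS1, USP18, DUSP15 and FBXO2, among others, are longer. The part of these measures in the results was not tested.

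**Figure D4:**
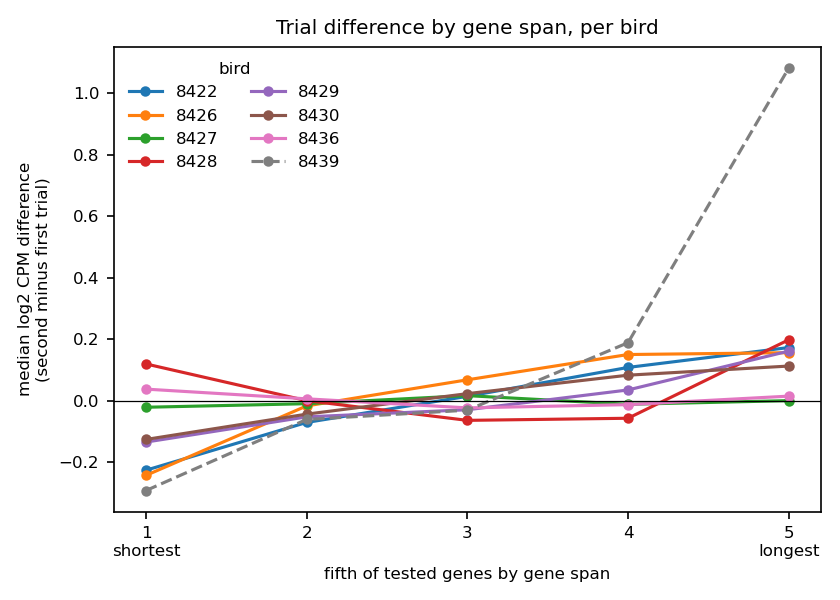
Median log2 CPM difference, second minus first trial, in 5 groups of the tested genes of equal size ordered by annotated gene span, with 1 line per bird. Bird 8439 reaches 1.08 in the group of longest genes, and the other 7 birds stay between -0.24 and 0.20.

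**Figure D5:**
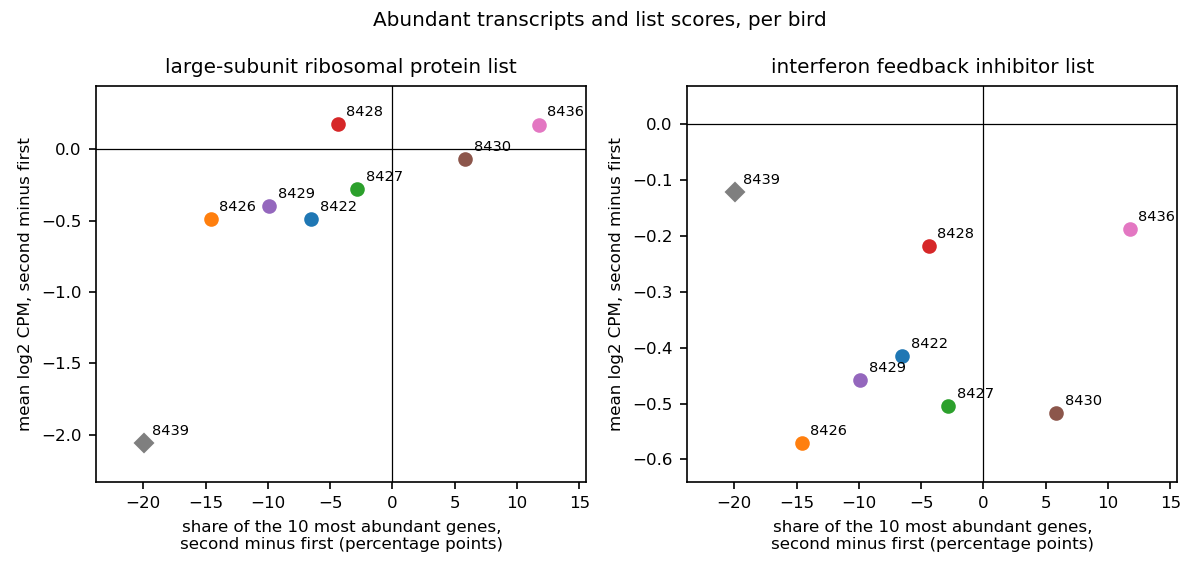
Change in the share of counts held by the 10 most abundant genes (percentage points, x axis) against the change in mean log2 CPM of 2 gene lists. These are large-subunit ribosomal protein genes (left) and feedback inhibitors of interferon and cytokine signalling (right). Each bird is 1 point, with a diamond for bird 8439. Bird 8439 lies far below the other 7 on the left (-2.06) and is the least negative on the right (-0.12).

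Markers of blood cell types were read beside the lists. Erythroid markers (17 of 28 tested) had a mean log2 CPM of 7.58 to 7.89 at first trials and 7.37 to 8.0 at second trials, with a median log2 fold change of -0.08. Defining genes such as ALAS2, GATA1 and KLF1 were not analysed here. Thrombocyte markers (20 of 28 tested) stood higher for 17 of 20 genes and lower for 3, where 46.3% of all genes were lower. An unadjusted p under 0.05 was met by 0 of 20 (5.76% of all genes). The median of these markers was 0.37, or 0.12 without bird 8439. Their mean log2 CPM was 2.54 to 3.35 at first trials and 2.90 to 4.38 at second trials, higher in 7 of 8 birds by 0.01 to 1.79, the last in bird 8439. Against the first trials of the 7 other birds the thrombocyte median was 0.39, with 16 of 20 higher and 7 of 20 at an unadjusted p under 0.05 on the higher side (2.06% of all genes). That comparison includes the second library of bird 8439, which gave the 4.38. At the first trial the recaptured birds' median against the same 7 was 0.08, with 11 of 20 higher.

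F13A1, the coagulation factor XIII subunit carried by thrombocytes, was at 0.37 ± 0.203, at 0.24 ± 0.159 without bird 8439 and at 0.23 without bird 8422. Against other birds' first trials F13A1 was at 0.78 ± 0.225, and at the first trial the recaptured birds already stood 0.47 ± 0.227 above them. Heterophil markers (10 of 21 tested, median 0.25) and monocyte markers (15 of 26 tested, median 0.21) went to 0.04 and 0.06 without bird 8439. Monocyte markers were at -0.44 in birds with local song first and 0.85 in birds with foreign song first. Bird 8439 was at 1.94, and the other foreign-first birds ran from 0.22 to 0.62. C1QB, a complement component of macrophages, was at 0.58 ± 0.244 and higher in 5 of 8 birds, and at 0.47 ± 0.222 without bird 8439. By order C1QB was at -0.25 with local song first and 1.40 with foreign song first. At the first trial the recaptured birds stood at -0.86 ± 0.434 against the 7 others for this gene, and their second trials at -0.14 ± 0.475. T cell and B cell markers had medians of -0.10 and -0.06. B cell markers were split, with 9 of 19 higher and 10 lower and log2 fold changes from -0.58 to 0.62, CD79A, part of the B cell receptor, being at -0.54 ± 0.222. The part of cell makeup in the interferon values was not tested.

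Among glucocorticoid receptors and targets the direction was mixed. Of 23 tested members of 30 listed, 15 stood higher and 8 lower, with a median log2 fold change of 0.11, or 0.02 without bird 8439. An unadjusted p under 0.05 was met by 3 on the higher side (3.8% of all genes) and 0 on the lower. Without bird 8439 these counts were 1 and 0. The list's mean log2 CPM differed by -0.01 in birds with local song first and by 0.46 in birds with foreign song first. Bird 8439 was at 1.03, and the other foreign-first birds ran from -0.15 to 0.55. FKBP5, a co-chaperone induced by glucocorticoids, was at 0.869 ± 0.416 CPM and 1.13 ± 0.406 CPM (0.46 ± 0.264). Cell division genes (52 of 59 tested) had a median of 0.07. CDC20, an activator of the anaphase-promoting complex, was at 0.76 ± 0.312 and higher in 7 of 8 birds, and at 0.43 ± 0.150 without bird 8439. MKI67, a proliferation marker, was at 0.68 ± 0.333, and 0.44 without bird 8430, and AURKA, a mitotic kinase, at -0.59 ± 0.202. SLC6A4, the serotonin transporter, was at 0.32 ± 0.167 and higher in 6 of 8 birds, and at 0.20 ± 0.129 without bird 8439. Against other birds' first trials it was at 0.78 ± 0.170, a value that also holds any difference between those birds and the recaptured ones.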

How the data were processed

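Whole-blood RNA was measured by poly(A) RNA sequencing, per the labels' protocols, which also state that haemoglobin transcripts were not depleted. Each deposited file gives whole-number counts that the authors left unnormalized, as the values show, for 21141 gene rows in each of 33 libraries. The submitters' processing notes name fastp and STAR. No version, counter, strand setting or build is stated there or in the labels. Symbols and annotated spans come from RefSeq (assembly bMelMel2.pri), in which 20961 rows were found. How reads of near-identical copies were divided is not given.

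The fits used edgeR 4.0.16 under R 4.3.3 (filterByExpr on song by trial groups, minimum count 10 and total 15, TMM scaling, robust quasi-likelihood test, Benjamini-Hochberg adjustment, threshold 0.05), with bird as block and song as covariate. Standard errors restate the test, as the size of the log2 fold change over the root of its F. Log2 CPM used a prior count of 1. CPM of the 16 libraries uses the scaling of that fit, and CPM of the 7 first-trial-only and 10 baseline birds and the plot over 33 libraries use a scaling over all 33. In the latter CISH of bird 8436 is 1012 CPM at the first trial and 1013 CPM at the second. The other fits used song as covariate. DESeq2 1.42.0 and limma 3.58.1 were alternatives, and the scripts were tested on simulated data. Libraries are paired by the bird numbers of the labels, and same-bird likeness was checked by correlation across genes (r -0.04 to 0.623). Labels do not say more of how samples were taken. The p-values of the within-bird fit measure how the second-minus-first differences vary among these birds. Those of the fits against the 7 other birds measure the spread between birds.

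The members and the gene lists were chosen with earlier results of these data known, so lists have counts and medians and no test. Named genes were, from the within-bird fit at an average log2 CPM of at least 0, the 10 genes with a symbol and the 2 without per direction with the smallest p, the 5 per direction with 1 sign in 8 of 8 birds and the largest smallest difference, and in each list the 3 of smallest p with the sign of its median plus 1 of the opposite sign where p was under 0.05. Not all of the 128 genes so chosen are described. Promoter motifs and protein lengths were planned and not analysed here, and annotated gene span stood in for length. One gene that the rule names is not reported here.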

Additional observations from a re-analysis of the deposited data

Results flagged for a closer look

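Among 57 named genes, each group of 8 first-trial or 8 second-trial values was searched for a library far from the other 7, by Dixon's test. Of 114 groups 12 held one, where chance gives about 5%. The second-trial library of bird 8439 accounts for 6. In it B2M was at 1092 CPM (others 2006 to 3411), IRF1 at 296.1 CPM (others 482 to 699), IFNAR2 at 37.35 CPM (others 58.3 to 72.7), RPL8 at 112.6 CPM (others 365.5 to 771), RPS26 at 25.25 CPM (others 58.4 to 114.6) and CDC20 at 77.11 CPM (others 19.4 to 31.1). Its first-trial library had CISH at 415.5 CPM (others 935 to 1486) and RPS26 at 46.66 CPM (others 88.4 to 143.6).

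In bird 8427 POLA2 was at 0.4189 CPM at the first trial and 0.5994 CPM at the second, where the lowest other values were 2.13 CPM and 3.67 CPM. In bird 8422 DUSP15 was at 1.21 CPM at the second trial (others 2.98 to 6.44) and F13A1 at 86.15 CPM at the first (others 185 to 303).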

How the results depend on the processing

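The 57 named genes were chosen from the main fit, and none passed in it. The choice was by smallest p, over all genes or within a list, or by 1 sign in every bird. Kept signs in the same libraries are therefore no independent check. Under 15 settings, 848 of 855 log2 fold changes kept their sign and their side of the threshold, 6 changed sign and 1 (DUSP15 under DESeq2) passed the threshold. Those that changed sign were C2H11orf87 (0.97 with limma-voom and a random replicate block, 0.31 without birds 8428 and 8439), IFNAR2 (0.032 without both birds) and IFNGR1 (0.091 without both, and -0.16 without bird 8436 to 0.027 without bird 8427 when 1 bird is left out, with 0.019 without bird 8439). The medians of 21 of 33 lists kept 1 sign in the 11 settings run for lists. DESeq2 called 1 gene within birds and gave 1227 at an unadjusted p under 0.05, limma-voom 1214, and the fit with no replicate block 349. Leaving out 1 bird at a time gave 365 (without bird 8422) to 1565 (without bird 8436), with 480 without bird 8426. Genes detected differed by 509 without bird 8439, where the exact permutation p was 0.0938. With no filter on low counts, 881 genes had an unadjusted p under 0.05 in second trials against other birds' first trials, and 1058 between recaptured and other birds at the first trial, where DESeq2 called 3. The cause of these differences was not tested. The number of pairs, 8, limits the precision, and the lowest values, such as 0.0723 CPM for IL1RL1 in bird 8439, rest on few counts.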
